A study of Mus musculus with 12 samples.

Results

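The urinary bladder of Y/T KO mice was compared with that of Ctrl mice in 6 of the 12 RNA sequencing libraries of the series, 3 per genotype, each made from the whole bladder of 1 mouse. The members are the 18237 genes, of 54532 in the tables, that reached 0.5 TPM in at least 3 of these 6 libraries. TPM (a length-corrected abundance scaled to a fixed library total) gives a gene's share of the transcripts in a library. The other 6 libraries hold colon of the same genotypes, and 3 of the 9 mice gave both tissues. Y/T KO mice carried floxed *Yap1* and *Wwtr1* alleles and a positive Myh11CreERT2, a tamoxifen-inducible Cre driven by the smooth muscle myosin heavy chain promoter, whereas Ctrl mice had the floxed alleles without Cre. The transgene lies on the Y chromosome, and all animals were males of 5 to 7 weeks. Both genotypes received tamoxifen at 1 mg per day for 5 days, and tissue was taken 7 days after the first injection, so that tamoxifen and the floxed alleles are shared and Cre is not. Recombination was thus directed at smooth muscle, in an organ whose RNA also comes from urothelium, stroma, vessels, nerves, and immune cells. In such whole-tissue RNA, fewer cells of a type and less RNA per cell cannot be told apart.

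YAP (*Yap1*) and TAZ (*Wwtr1*) are co-activators at the end of the Hippo kinase pathway. When they are in the nucleus they bind TEAD transcription factors and raise the expression of growth, cytoskeletal, and matrix genes. Detrusor, the muscle of the bladder wall, contracts mainly in response to acetylcholine at M3 receptors and ATP at P2X1 receptors. Its contractile genes are driven by serum response factor (SRF) with its co-activators myocardin and the myocardin-related factors, which share many target genes with YAP and TAZ.

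Where 3 values are listed for a genotype, their order is mouse 784, 785, 788 for Ctrl and mouse 782, 783, 780 for Y/T KO, and "against" sets Ctrl before Y/T KO. *Yap1* ran from 98.6 to 110 TPM in Ctrl bladders and from 69.4 to 72.1 TPM in Y/T KO bladders, and the genotypes did not overlap. Every Y/T KO value lay below every Ctrl value for 10.0% of all tested genes, and the adjusted p of *Yap1* was not under 0.05 in the comparison below. *Wwtr1* read 32.5, 61.6, and 53.3 TPM against 59.3, 60.8, and 48.3 TPM, with overlap (log2 fold change 0.24, and -0.017 without Ctrl mouse 784). *Wwtr1* thus does not separate the libraries by label. Gene-level TPM includes reads outside the floxed exons, so it is not a direct measure of recombination.

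The libraries differed in what tissue they held. *Sbp*, which encodes the prostatic spermine-binding protein, stood at 36341 TPM in Ctrl mouse 784 and reached 39648 and 27206 TPM in mice 783 and 780 of the Y/T KO group, but at 14.3 to 35.3 TPM in the other 3 mice. Together with *Sbpl* and *9530002B09Rik*, it took 5.43%, 7.31%, and 5.34% of all TPM in the first 3 libraries. These 2 genes and *Sbp* were picked after their values were seen. Part of the seminal vesicle and prostate list did not move with them. In all bladder libraries 6 of its 14 members were at 0, *Svs2*, *Svs3a*, and *Pate4* among them, and *Svs5* reached at most 2.14 TPM. *Pbsn*, which encodes the prostatic protein probasin, followed *Sbp* at 967, 33.8, and 311 TPM against at most 0.728 TPM in the others. So did *Spink1*, at 1240, 9183, and 177 TPM against at most 0.812 TPM, and *Msmb*, at 2410, 129, and 795 TPM against at most 0.507 TPM. Skeletal muscle genes were high in part of the same libraries. The 18 genes of that list summed to 11864 and 12754 TPM in mice 783 and 780 and to 1336 to 2687 TPM in the other 4 libraries, and *Mylpf*, a fast-twitch myosin light chain, went from at most 165 TPM to 1667 and 1410 TPM there. The adipocyte list summed to 3047 to 6863 against 5067 to 8858 TPM. The urothelial markers *Upk1a*, *Upk1b*, *Upk2*, *Upk3a*, and *Krt20* were present in every library. Of the colon epithelium markers, *Cdx2* and *Muc2* were at 0 in all bladder libraries, but *Vil1* and *Lgals4* were not. *Vil1* stood at 0.104 to 0.322 TPM, and *Lgals4* at 7.53 to 11.96 against 12.6 to 33.4 TPM.

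**Figure D1:**
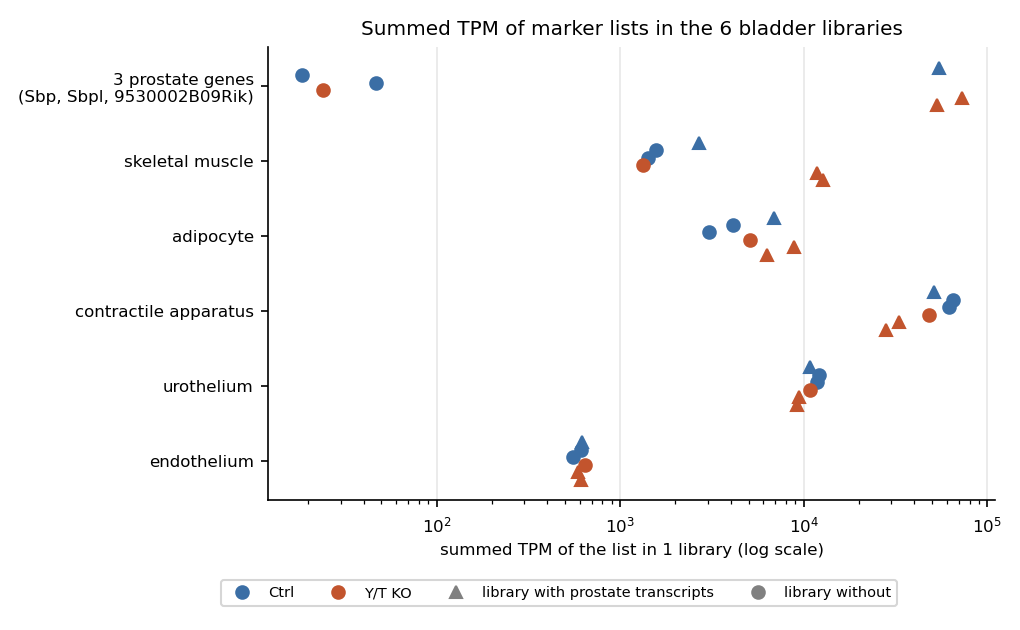
Summed TPM of marker lists (log axis) in each bladder library. Colour gives the genotype and triangles mark the 3 libraries with prostate transcripts, which hold 1 Ctrl and 2 Y/T KO mice. The 3 prostate genes separate these libraries from the rest, skeletal muscle genes are highest in Y/T KO mice 783 and 780, and the contractile apparatus sums to 28090 to 48041 TPM in Y/T KO and 50937 to 65031 TPM in Ctrl.

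Genotypes were compared gene by gene on log2(TPM + 0.1), after a rescaling of the libraries whose factors lay between 0.966 and 1.045, with limma and Benjamini-Hochberg adjustment over all tested genes. A gene is said to have fallen or risen where its adjusted p was under 0.05. In all, 55 genes (0.302%) passed, of which 40 fell (0.219%) and 15 rose (0.0823%), and the genotypes did not overlap for any of the 55. At an unadjusted p under 0.05 there were 1496 lower (8.2%) and 1211 higher (6.64%) genes. The Y/T KO values lay entirely below the Ctrl values for 10.0% of the tested genes and entirely above for 10.4%. The median log2 fold change over all tested genes was 0.0020. On leaving out 1 library at a time, 39, 20, and 19 genes passed in total without Ctrl mouse 784, 785, and 788. Without Y/T KO mouse 782, 783, and 780 the totals were 51, 19, and 22. In the same order, 26, 18, and 15 and then 30, 17, and 18 of these were among the 55. Of the 55, 14 genes passed each time. With all 12 libraries in one fit, 22 of the 55 passed and 33 did not, and 13 passed in every alternative other than leaving out libraries and the fits split by or adjusted for prostate RNA. In 11 of the 55 every library of 1 genotype was under 0.5 TPM (Y/T KO in 8, Ctrl in 3). Such genes entered the test through the other genotype and had to differ between them.

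Most of the genes that fell furthest were copies of other genes. Of the 40, 15 are annotated as processed pseudogenes, which are intronless copies of messenger RNAs, and 6 as microRNA genes, whereas processed pseudogenes made up 7.98% and microRNA genes 0.861% of the tested genes. Protein-coding genes accounted for 16 of the falls and 9 of the rises, and 3 antisense genes fell and 3 rose. Of the 55 genes, 31 overlap another annotated gene, 21 of them with one on the opposite strand. The library kit keeps the strand, but whether the strand was used in counting is not given in the sources used here.

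**Figure D2:**
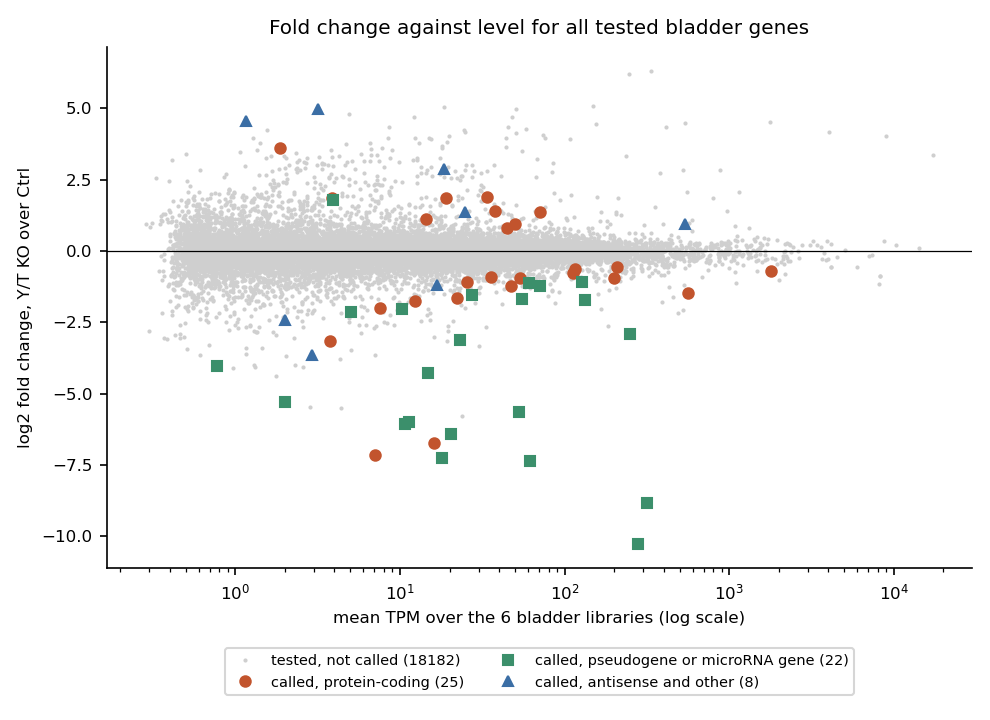
Log2 fold change (Y/T KO over Ctrl) of each tested bladder gene against its mean TPM (log axis), with called genes coloured by annotation class. The 22 called pseudogenes and microRNA genes (green squares) include the lowest points, and 1 of them lies above 0.

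The largest block was ferritin light chain. *Ftl1* encodes the light subunit of ferritin, the protein shell that stores iron, and lies on chromosome 7 (45457944 to 45459884, GRCm38). Of the genes that fell, 8 align to its transcript, namely the pseudogenes *Ftl2-ps*, *Ftl1-ps2*, *Gm12164*, and *Gm15590* and the microRNA genes *Gm22774*, *Gm26445*, *Mir692-1*, and *Mir692-2*. *Ftl2-ps* lies within the gene span of *Grik3* on chromosome 4 (125504288 to 125504839), on the same strand, and differs from the matching 552 bases of *Ftl1* at 7 positions.

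*Mir692-2* lies inside *Ftl2-ps*, *Gm26445* overlaps *Ftl1-ps2*, and *Gm22774* overlaps *Gm15590*. RefSeq gives *Mir692-1* and *Mir692-2* the same mature microRNA, shown because both of its genes fell, with the seed (bases 2 to 8) in capitals.

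mmu-miR-692: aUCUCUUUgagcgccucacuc

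The same 21 letters, in the sense direction, stand in 2 of 2 *Ftl1* transcripts. The libraries were made from messenger RNA, so TPM of these microRNA genes counts reads of longer transcripts and not the mature microRNA.

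*Ftl2-ps* stood at 494, 665, and 740 against 1.46, 1.19, and 1.23 TPM, and fell (log2 fold change -8.81, SE 0.15, limma adjusted p = 5.78e-06). *Gm22774* went from 409, 625, and 644 TPM to 0.261, 0.178, and 0.755 TPM (log2 fold change -10.28, limma adjusted p = 0.000366), and *Ftl1-ps2* from 91.8, 127, and 147 TPM to 0.416, 0.882, and 0.661 TPM (-7.36, 0.000259). *Ftl1* itself was higher in every Y/T KO library, at 420, 575, and 585 against 1869, 1163, and 1180 TPM, with no overlap. Its log2 fold change of 1.39 (SE 0.20) had a limma adjusted p of 0.0628 and thus did not pass, and it passed with a term for prostate RNA in the fit (1.56, limma adjusted p = 0.00258). With all 12 libraries in one fit *Ftl2-ps*, *Gm22774*, and *Ftl1-ps2* did not pass (limma adjusted p = 0.192, 0.113, and 0.0854). *Ftl1* together with the 9 copies added up to 1513 to 2250 against 1170 to 1886 TPM, ranges that overlap. *Ftl1* made up 26.0% to 27.7% of that sum in the Ctrl bladders and 98.4% to 99.4% in the Y/T KO bladders. The sum counts short microRNA genes, such as *Gm22774* with 109 bases, beside the pseudogenes that they overlap. As TPM is length-corrected, these are shares of summed TPM and not of reads. *Fth1*, the heavy subunit, overlapped between genotypes at 4224 to 5084 and 3350 to 5017 TPM (log2 fold change -0.21, limma adjusted p = 0.497). Near-identical copies share reads, and how reads were divided among them in each library was not tested.

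**Figure D3:**
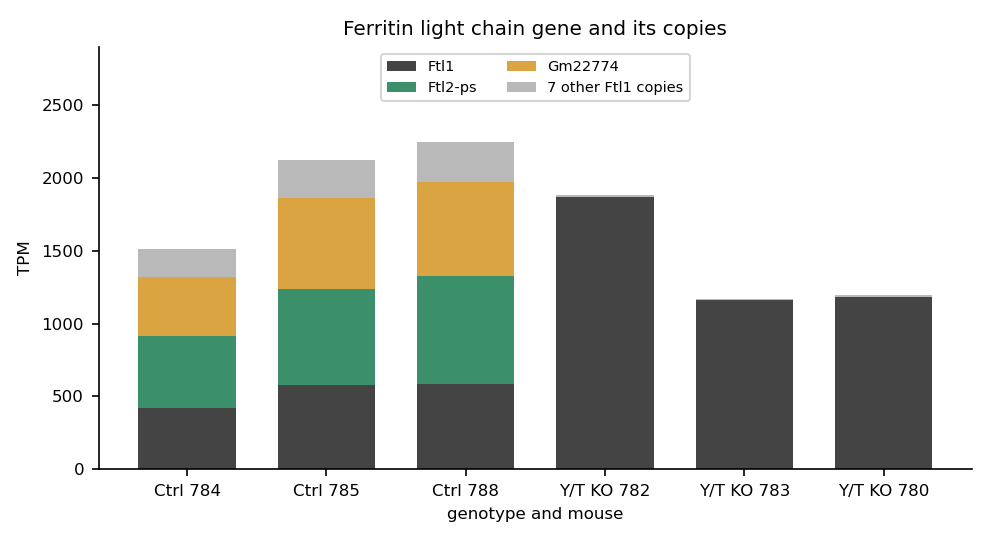
TPM of *Ftl1* and its copies, stacked, in each bladder library. The copies make up most of the bar in the 3 Ctrl libraries and almost none of it in the 3 Y/T KO libraries.

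Other fallen copies had parents outside the ferritin family. *Gm8210* and *Gm13841* are 99.4% identical to *Rpl29*, *Gm5452* is 95.9% identical to *Ldha*, and *Gm15610* and *Tma7-ps* are copies of *Tma7*. *Gm6394* lay at 91.7, 99.2, and 118 against 2.09, 1.78, and 1.96 TPM (log2 fold change -5.65, limma adjusted p = 1.27e-05). *Gm23935* (-1.71) and *Gm24270* (-1.69), the microRNA genes without such a parent, fell, as did the copies *Chchd2-ps* (-2.15), *Rpl18-ps2* (-1.54), *Gm4366* (-1.09), and *Gm20368* and the antisense genes *Gm21284* (-3.64) and *Gm15545* (-1.20). *Gm11478* lay at 411, 426, and 487 against 63.4, 54.5, and 58.9 TPM, a log2 fold change of -2.90. No parent that was tested passed, and *Ldha*, which encodes lactate dehydrogenase A, had a log2 fold change of -0.29 (limma adjusted p = 0.332). These copies too share sequence with other genes, at an identity from 88.3% (*Gm20368*) to 99.6% (*Gm4366*). How reads were divided between copy and parent was not tested.

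*Zbtb9*, which encodes a zinc finger protein, was listed at 13.6 to 14.6 TPM in Ctrl and at 0 in all 3 Y/T KO bladders. It lies on chromosome 17 (26973167 to 26976205) and overlaps *Ggnbp1* on the same strand, which went from 8.88, 9.42, and 8.62 TPM to 20.0, 17.5, and 21.8 TPM and rose (log2 fold change 1.12, limma adjusted p = 0.0274). The sum of the pair was 22.5 to 23.4 against 17.5 to 21.8 TPM. *Zbtb9* was not at 0 in Y/T KO colon, where the same mice 783 and 780 had 15.1 and 15.6 TPM.

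Among the protein-coding genes that fell, *Ptprz1*, a receptor-type tyrosine phosphatase, was the next in size after *Zbtb9* and *Npy6r*. It went from 4.71, 9.37, and 6.55 to 0.597, 0.710, and 0.675 TPM (log2 fold change -3.14, SE 0.30, limma adjusted p = 0.0166). *Npy6r*, a receptor gene of the neuropeptide Y family, went from 18.4, 58.5, and 19.7 TPM to 0.425, 0.0905, and 0.0764 TPM (log2 fold change -6.74, limma adjusted p = 0.0137). All 3 Y/T KO values of it lay under the 0.5 TPM of the filter. *Serpinh1* encodes HSP47, the chaperone that folds procollagen in the endoplasmic reticulum, and went from 758, 859, and 842 TPM to 400, 226, and 289 TPM (log2 fold change -1.46, SE 0.18, limma adjusted p = 0.0396). *Lamc1* encodes the laminin gamma 1 chain of basement membranes and went from 239, 256, and 290 TPM to 149, 144, and 119 TPM (-0.93, SE 0.11, limma adjusted p = 0.0410). *Mmp17* (a membrane-anchored metalloproteinase) had a log2 fold change of -1.74, and *Chpf* (chondroitin polymerizing factor) one of -1.08. With all 12 libraries in one fit *Lamc1* and *Mmp17* passed, but *Serpinh1* (limma adjusted p = 0.277) and *Chpf* (0.136) did not. With a term for prostate RNA *Lamc1* did not pass (limma adjusted p = 0.0675), and *Mmp17*, *Serpinh1*, and *Chpf* did. Without the trend and robust options of limma only *Chpf* of these genes passed. The inhibitors of differentiation *Id3* and *Id4*, transcriptional targets of BMP signaling, went from 145, 145, and 136 TPM to 86.1, 79.7, and 83.7 TPM (-0.77, SE 0.08, limma adjusted p = 0.0236) and from 58.1, 78.6, and 62.3 TPM to 30.9, 27.0, and 26.6 TPM (-1.22, SE 0.13, limma adjusted p = 0.0274), and neither passed with all 12 libraries (0.0941 and 0.0674). An antisense gene that overlaps *Id4*, *A330033J07Rik*, fell too (-2.42). The other protein-coding falls were *Car11* (-1.64), *Msl3* (-0.93), *Clcn4* (-0.90), *Rplp1* (-0.70), *Uqcc2* (-0.64), *Atp5d* (-0.57), and *Gm49322* (-1.99), with limma adjusted p between 0.0165 and 0.0480. Of these, *Car11* and *Msl3* passed with all 12 libraries and the other 5 did not.

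The genes that rose included a potassium channel. *Kcnc1*, the voltage-gated potassium channel Kv3.1, went from 0.307, 0.111, and 0.170 TPM to 5.07, 2.87, and 2.75 TPM (3.62, limma adjusted p = 0.0307). All 3 Ctrl values lay under the 0.5 TPM of the filter, and the gene did not pass with a mean of at least 1 TPM required (limma adjusted p = 0.0555) or with a term for prostate RNA (0.0648). *1600014C10Rik* rose from 12.8 to 16.4 TPM in Ctrl to 56.6, 49.9, and 54.3 TPM (1.89, SE 0.11, limma adjusted p = 0.00235) and is one of 14 genes that passed with each library left out in turn. *Htatip2* (1.38), *Dcaf6* (0.93), *Fyttd1* (0.82), *Ms4a4d* (1.40), and *Galnt9* (1.88) rose as well. Of these, only *Dcaf6* passed with all 12 libraries in one fit. With a term for prostate RNA *Fyttd1* (limma adjusted p = 0.0903) and *Galnt9* (0.0526) did not pass and the others did. The mitochondrial ribosomal RNA *mt-Rnr1* went from 376, 359, and 373 TPM to 672, 707, and 754 TPM (0.94, limma adjusted p = 0.0148). It did not pass without the trend and robust options of limma (0.0543) or with all 12 libraries (0.932), where it was listed at 0 in the colon of Y/T KO mouse 783. *mt-Rnr2*, named after its values were seen, lay at 428 to 493 and 728 to 740 TPM, and the 12 protein-coding mitochondrial genes tested had a median log2 fold change of 0.03. The immunoglobulin segment *Igkv1-135* went from 3.55, 5.74, and 3.72 TPM to 24.5, 30.2, and 43.7 TPM (2.88, limma adjusted p = 0.0178). The noncoding *4930481A15Rik*, *Gm31597*, *Gm31166*, and *Atcayos* rose too. *Gm31597* was listed at 0 in all 3 Ctrl libraries and reached 1.80 to 2.94 TPM in Y/T KO.

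On chromosome 7, *Gm15545*, *Car11*, *Gm31597*, *Kcnc1*, and *Htatip2*, 5 of the 148 tested genes within 5 Mb of *Saa1* (3.38%), were among the 55, against 0.276% of the tested genes elsewhere. Within 5 Mb of the targeted genes the counts were 0 of 29 around *Yap1* and 1 of 58 around *Wwtr1* (*Gm6394*). The *Saa1* window was chosen after the positions were seen, and neighbouring genes are not independent.

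The contractile apparatus as a list was lower in Y/T KO bladder, although no member passed on its own. All 19 genes were tested, 18 had a negative log2 fold change, and the median was -0.47, against 0.0020 for all genes. An unadjusted p under 0.05 was reached by 10 members, all lower (all genes 8.2%), and 9 lay entirely below Ctrl in Y/T KO (all genes 10.0%). *Tnnt2*, the cardiac form of troponin T, which smooth muscle contraction does not require, had the lowest p. It stood at 322, 242, and 225 against 94.4, 42.3, and 66.7 TPM (log2 fold change -2.01, SE 0.29, limma adjusted p = 0.0653). *Cald1* encodes caldesmon, an actin-binding regulator of myosin, and stood at 1280, 1603, and 1646 TPM against 865, 682, and 542 TPM (-1.13, SE 0.17, limma adjusted p = 0.0789). Both passed when all 12 libraries were fitted together (limma adjusted p = 0.0123 and 0.0314), a fit in which 33 of the 55 called genes did not. Among the most abundant members were *Actg2*, enteric gamma-actin, at 8148, 12704, and 12536 against 7160, 5055, and 3221 TPM, *Acta2*, alpha-actin, at 9492 to 12578 against 4685 to 8194 TPM, *Tagln*, the actin-binding protein SM22, at 9427 to 11328 against 4460 to 7824 TPM, and *Tpm2*, beta-tropomyosin, at 4298 to 5356 against 2761 to 4608 TPM. Of these, *Tpm2* overlapped between genotypes. Y/T KO mouse 782 was the highest of the 3 Y/T KO bladders for each of these 4 genes.

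**Figure D4:**
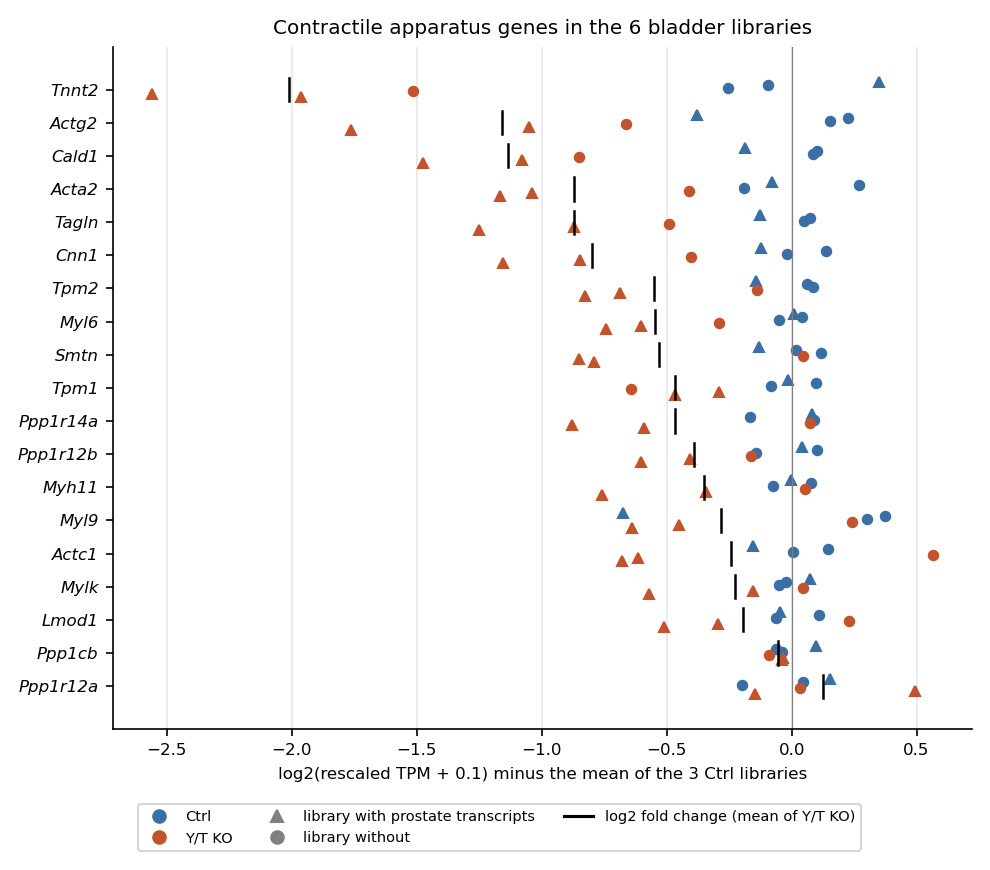
Each contractile apparatus gene in each bladder library, as log2(rescaled TPM + 0.1) minus the mean of the 3 Ctrl libraries. Triangles mark the libraries with prostate transcripts and black bars the log2 fold change, which is negative for all genes but *Ppp1r12a*. Y/T KO mouse 782, the single Y/T KO circle in each row, lies nearer to Ctrl than the other Y/T KO libraries for most genes.

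Prostate transcripts moved with this result. Among the 3 libraries that hold them (1 Ctrl, 2 Y/T KO) the median of the list was -0.62, among the 3 that do not (2 Ctrl, 1 Y/T KO) it was -0.13, and with a term for prostate RNA in the fit it was -0.35. Leaving out 1 library at a time gave -0.67 to -0.38. The part of prostate and skeletal muscle RNA in the result was not tested further.

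Promoter windows of the 4 most abundant members that the RefSeq table holds follow (GRCm38.p6, 250 bases before to 50 after the annotated start), to place the binding sequences of the factors named above beside the genes. Capitals mark exact matches to the CArG box, the element bound by SRF, and to GGAATG, the core of the element bound by TEAD factors, on either strand. A CArG match is CC, a run of only A or T, and GG. Stretches that differ from it by a single base, such as ccctatatgg in the *Acta2* window, stay in lower case. A window without a marked CArG box is thus not shown to lack a site for SRF. *Myl6* has 2 annotated starts.

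Acta2 (chr19:34255324-34255623, minus strand): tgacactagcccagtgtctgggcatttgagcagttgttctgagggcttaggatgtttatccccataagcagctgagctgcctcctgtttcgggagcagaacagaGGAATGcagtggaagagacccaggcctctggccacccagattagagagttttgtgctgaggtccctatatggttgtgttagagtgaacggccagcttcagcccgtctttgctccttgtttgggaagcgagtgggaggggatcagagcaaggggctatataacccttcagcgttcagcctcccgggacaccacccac
Tpm2 (chr4:43523505-43523804, minus strand): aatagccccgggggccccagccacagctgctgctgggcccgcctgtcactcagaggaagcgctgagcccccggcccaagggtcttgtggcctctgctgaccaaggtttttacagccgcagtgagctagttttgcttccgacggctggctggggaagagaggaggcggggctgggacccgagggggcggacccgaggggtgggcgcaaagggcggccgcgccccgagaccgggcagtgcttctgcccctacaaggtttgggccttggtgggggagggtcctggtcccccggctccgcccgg
Myl6 (chr10:128492960-128493259, minus strand): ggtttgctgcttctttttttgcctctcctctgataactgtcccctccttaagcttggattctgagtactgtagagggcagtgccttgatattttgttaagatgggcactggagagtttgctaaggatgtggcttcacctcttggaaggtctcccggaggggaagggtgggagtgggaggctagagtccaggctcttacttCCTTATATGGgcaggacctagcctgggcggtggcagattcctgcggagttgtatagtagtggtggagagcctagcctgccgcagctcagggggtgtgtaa
Myl6 (chr10:128493837-128494136, minus strand): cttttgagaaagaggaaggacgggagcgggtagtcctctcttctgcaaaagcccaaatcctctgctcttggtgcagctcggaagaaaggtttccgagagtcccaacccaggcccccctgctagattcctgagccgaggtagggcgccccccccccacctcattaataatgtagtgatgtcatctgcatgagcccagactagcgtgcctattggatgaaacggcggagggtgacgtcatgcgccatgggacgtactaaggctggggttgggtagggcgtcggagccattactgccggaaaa
Myl9 (chr2:156775214-156775513, plus strand): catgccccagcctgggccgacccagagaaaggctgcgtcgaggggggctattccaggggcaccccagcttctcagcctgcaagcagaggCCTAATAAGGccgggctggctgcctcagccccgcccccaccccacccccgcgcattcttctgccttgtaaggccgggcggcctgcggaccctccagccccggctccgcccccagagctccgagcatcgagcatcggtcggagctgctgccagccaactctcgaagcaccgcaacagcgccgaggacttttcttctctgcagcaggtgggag

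Of the 16 contractile genes with a window, 3 held an exact CArG match (*Actc1*, *Myl9*, and *Myl6*) and 9 held the TEAD core, with *Acta2*, *Cald1*, and *Tnnt2* among the latter. Of all 27025 genes with a window, 1.81% held a CArG box and 16.6% held GGAATG. Of the 11990 tested bladder genes with a window, the shares were 1.59% and 14.8%. Of the 27 dense plaque genes with a window, 6 held a CArG box and 8 held GGAATG. Among the called genes with a window, GGAATG stood in 5 of 15 that fell, *Id3* and *Id4* included, and in 2 of 10 that rose. These counts describe the letters in short windows and not binding.

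Dense plaques are the sites where actin filaments of smooth muscle are tied to the membrane. Of the 31 dense plaque genes, 24 had a negative log2 fold change, 15 of them at an unadjusted p under 0.05, and the median was -0.33. Beside this count and those of the lists that follow stand the 8.2% of all tested genes that were lower and the 6.64% that were higher at that p. *Des*, which encodes the intermediate filament desmin, stood at 2271, 2884, and 2816 against 1792, 1089, and 1140 TPM (log2 fold change -1.02, SE 0.18, limma adjusted p = 0.103). It passed without Y/T KO mouse 782 (limma adjusted p = 0.0290) and with a term for prostate RNA (limma adjusted p = 0.0439). *Vcl* (vinculin) stood at 289 to 357 against 168 to 226 TPM, with a log2 fold change of -0.73, and *Tln1* (talin) at 99.5 to 142 against 54.1 to 78.5 TPM, with one of -0.85. *Pdlim3*, a PDZ and LIM domain protein, had a log2 fold change of -0.34, and the genotypes overlapped for the abundant *Flna* (filamin A, -0.26) and *Csrp1* (-0.55). The list's median was -0.14 among the libraries without prostate transcripts and -0.41 among those with them.

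Caveolae are flask-shaped pits of the muscle membrane, built of caveolins and cavins. The 10 genes had a median of -0.36, with 6 lower at an unadjusted p under 0.05, and medians of -0.21 and -0.41 in the libraries without and with prostate transcripts. *Cav3*, the muscle caveolin, stood at 29.2, 40.9, and 28.8 against 13.5, 17.3, and 13.7 TPM (log2 fold change -1.13, SE 0.20, limma adjusted p = 0.101). *Ehd2*, an ATPase at the neck of caveolae, had a log2 fold change of -0.62, *Cavin1* of -0.45, and *Cavin3* of -0.44. *Cav1* had one of -0.91, and *Cavin2* overlapped between genotypes (0.07).

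No receptor of the bladder muscle passed. Of 30 tested, 4 were lower and 2 higher with an unadjusted p under 0.05 (all genes 8.2% and 6.64%), and the median was -0.19. *P2rx1*, the ATP receptor of detrusor and the most abundant member, stood at 765, 464, and 946 against 592, 647, and 580 TPM (log2 fold change -0.20, SE 0.25, limma adjusted p = 0.743). For the M3 receptor gene *Chrm3* the log2 fold change was -1.39, at 15.5 to 24.9 against 6.46 to 8.87 TPM (limma adjusted p = 0.0838). *Ptgfr*, the prostaglandin F receptor, stood at 2.83, 1.94, and 2.19 TPM against 4.83, 4.66, and 5.21 TPM (1.06, SE 0.22, limma adjusted p = 0.138), and *S1pr1*, a sphingosine 1-phosphate receptor, at 22.0 to 28.3 against 33.9 to 43.8 TPM (0.63, limma adjusted p = 0.162). *Ptger3* (-0.71), *Avpr1a* (-0.19), and *Ednrb* (0.17) overlapped between genotypes.

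Of 35 genes of excitability and calcium handling, 7 were lower and 3 higher before adjustment (p under 0.05), and none passed. *Cacna1g*, a T-type calcium channel subunit, stood at 5.13, 4.21, and 3.83 against 1.95, 1.76, and 2.05 TPM (log2 fold change -1.15, SE 0.22, limma adjusted p = 0.114). *Atp2b4*, a calcium pump of the plasma membrane, stood at 169 to 172 against 87.9 to 132 TPM (-0.65), whereas *Atp2a2*, the calcium pump of the sarcoplasmic reticulum (SERCA2), stood at 375 to 423 against 501 to 662 TPM (0.51), each with a limma adjusted p of 0.148. *Ano1*, a calcium-activated chloride channel, had a log2 fold change of -0.24 without overlap, and *Itpr1*, the inositol trisphosphate receptor, overlapped (0.14).

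*Myocd*, which encodes myocardin, stood at 44.2, 34.8, and 42.4 against 22.8, 18.3, and 17.3 TPM (log2 fold change -1.05, SE 0.14, limma adjusted p = 0.0573), and *Srf* at 45.6, 63.3, and 49.9 against 37.4, 34.4, and 33.3 TPM (-0.58, SE 0.14, limma adjusted p = 0.159). They were the 2 of 19 members of the SRF list with an unadjusted p under 0.05, and the median of the list was -0.08. The abundant members *Klf4* (-0.08), *Klf5* (-0.15), *Elk4* (0.05), and *Hopx* (0.07) overlapped between genotypes, as did *Mkl2*, the myocardin-related factor MRTF-B (0.29). In the Hippo list, 3 of 31 tested genes reached an unadjusted p under 0.05, all lower. These were *Yap1* (-0.54), *Tead2*, a TEAD factor, at 18.2 to 31.4 against 10.2 to 15.6 TPM (-1.05), and *Vgll4*, a competitor of YAP for TEAD (-0.29). *Sav1* (0.02), *Mob1a* (-0.01), and *Map4k4* (0.16), components of the kinase arm, overlapped.

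Targets of YAP and TAZ varied more between libraries than between genotypes in several cases. In the signature of 22 genes the median was -0.15, 2 genes were lower and 1 higher before adjustment (p under 0.05), and the median moved between -0.24 and 0.05 on leaving out 1 library. *Ankrd1*, a nuclear ankyrin-repeat protein, stood at 9.55, 125, and 6.35 against 0.154, 0.127, and 0.692 TPM (log2 fold change -5.79, SE 1.19, limma adjusted p = 0.141), and passed when all 12 libraries were fitted together (0.0302). The secreted matricellular proteins behaved otherwise. *Ctgf* (*Ccn2*) stood at 28.0, 769, and 64.0 against 59.2, 143, and 173 TPM (0.03), and *Cyr61* (*Ccn1*) at 7.28, 658, and 93.1 against 16.4, 64.0, and 73.1 TPM (-0.85, limma adjusted p = 0.850). Ctrl mouse 785 was the highest of the 6 libraries for all 3 genes. That library also had the highest sum over the immediate-early genes, at 2168 TPM against 552 to 1236 TPM in the others, and the part of this in the result was not tested. *Foxf2* had a log2 fold change of -0.43 with overlap. *Nt5e*, the ecto-nucleotidase CD73, stood at 42.7 to 68.3 against 79.6 to 93.0 TPM, above in every Y/T KO library (0.71, limma adjusted p = 0.184), and *Myof* (-0.03) and *Ccdc80* (-0.03) overlapped.

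Collagens are the main structural proteins of the bladder stroma. Of 32 collagen chains, 25 had a negative log2 fold change, 12 were lower and 0 higher before adjustment (p under 0.05), and the median was -0.40 (-0.21 without and -0.40 with prostate transcripts). *Col15a1*, a collagen of basement membrane zones, stood at 108, 110, and 117 against 75.3, 65.2, and 58.6 TPM (log2 fold change -0.76, SE 0.10, limma adjusted p = 0.0545), and *Col8a2*, a network-forming collagen, at 17.0, 24.1, and 15.1 against 8.36, 4.88, and 6.05 TPM (-1.53, SE 0.25, limma adjusted p = 0.0858, 0.0298 with all 12 libraries). *Col5a3* had a log2 fold change of -0.67 without overlap. The abundant fibrillar chains *Col1a1* (-0.75), *Col1a2* (-0.46), and *Col3a1* (-0.24) and the microfibrillar *Col6a1* (-0.30) overlapped between genotypes, with Y/T KO mouse 782 within the Ctrl range for each of the 4.

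Of 27 laminins and integrins, 9 were lower and 0 higher before adjustment (p under 0.05), *Lamc1* fell, and the median was -0.25. In 10 of them every Y/T KO value lay below every Ctrl value (all genes 10.0%). *Itga5*, the fibronectin receptor subunit, stood at 212, 410, and 270 against 143, 131, and 137 TPM (log2 fold change -1.06, SE 0.22, limma adjusted p = 0.141). *Itgb4*, a hemidesmosome integrin of epithelia, had a log2 fold change of -0.53 without overlap, and *Lama4* (-0.10) and *Itgb5* (0.09) overlapped. In the list of 48 elastic fibre, proteoglycan, and matricellular genes, 12 were lower and 4 higher before adjustment (p under 0.05). *Spon2*, a secreted matrix protein, stood at 127, 177, and 171 TPM against 94.1, 79.6, and 69.5 TPM (-0.96, SE 0.15, limma adjusted p = 0.0838), *Hspg2* (perlecan) had a log2 fold change of -0.64, and *Loxl1*, an enzyme that cross-links elastin, of -0.56. The 4 members with the highest mean TPM had values of either sign. *Dcn* (decorin) stood at 3680 to 3905 against 4008 to 5060 TPM (0.24), *Sparcl1* had a log2 fold change of 0.42 without overlap, and *Sparc* (-0.28) and *Bgn* (0.16) overlapped. Among 33 proteases and inhibitors, 7 were lower and 3 higher before adjustment (p under 0.05), and *Serpinh1* fell. *Mmp3*, a stromelysin, stood at 3.29, 4.19, and 3.06 TPM against 8.13, 12.8, and 10.7 TPM (1.55, SE 0.25, limma adjusted p = 0.0838), *Mmp2* had a log2 fold change of 0.29 and *Adamts9* of -0.94, both without overlap. *Timp2* (0.16) lay above in every Y/T KO library, and *Serping1* (0.11) overlapped.

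In the TGF-beta and BMP pathway, *Id3* and *Id4* fell, 5 of 44 genes were lower and 1 higher before adjustment (p under 0.05), and the median was -0.11. *Id2*, of the same family, was not lower, at 204, 114, and 125 against 150, 193, and 192 TPM (0.31, limma adjusted p = 0.608). *Fstl3*, a secreted inhibitor of activin, stood at 36.0, 63.2, and 35.8 against 19.9, 14.5, and 13.0 TPM (log2 fold change -1.48, SE 0.26, limma adjusted p = 0.103, 0.0298 with all 12 libraries). *Tgfbi* (0.01) and *Fstl1* (0.04) overlapped. Of 35 growth factor genes, 8 were lower and 1 higher before adjustment (p under 0.05). *Igfbp2*, which binds insulin-like growth factors, stood at 444, 1074, and 914 against 193, 179, and 141 TPM (-2.16, SE 0.32, limma adjusted p = 0.0812) and passed without Ctrl mouse 784 (limma adjusted p = 0.0124). *Gfra2*, a receptor for the neurotrophic factor neurturin, had a log2 fold change of -0.57 and *Igf2r*, which clears IGF2, of 0.40, both without overlap. The abundant *Igfbp7* (-0.01), *Igfbp5* (-0.0031), and *Igfbp6* (-0.77) overlapped.

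Urothelium is the epithelium that lines the bladder. Of its 29 tested genes, 9 were lower and 0 higher before adjustment (p under 0.05) and the median was -0.13, with -0.16 and -0.14 in the libraries without and with prostate transcripts. Keratins made up 6 of the 9, namely *Krt5*, *Krt7*, *Krt8*, *Krt14*, *Krt15*, and *Krt19*. *Krt5*, the basal cell keratin, stood at 423, 586, and 537 against 289, 285, and 277 TPM (log2 fold change -0.85, SE 0.12, limma adjusted p = 0.0628, 0.0419 without Ctrl mouse 784). *Krt14*, of a basal subset, stood at 4.23, 9.14, and 8.26 against 1.76, 0.796, and 2.08 TPM (-2.18, SE 0.42, limma adjusted p = 0.119), and *Krt7* at 414 to 521 against 291 to 379 TPM (-0.57). The uroplakins of the superficial layer, *Upk1a* (-0.12), *Upk1b* (-0.06), and *Upk3a* (-0.24), and *Krt18* (-0.13) overlapped between genotypes. The cell cycle list had 29 of 32 genes with a negative log2 fold change, 5 of them at an unadjusted p under 0.05, 1 gene higher at that p, and a median of -0.34 (-0.45 without and -0.06 with prostate transcripts). Among the lowest p were subunits of the replicative helicase, *Mcm5* at 14.9 to 20.3 against 5.51 to 8.72 TPM (-1.19, limma adjusted p = 0.106), *Mcm2* (-0.79), and *Mcm3* (-0.77), without overlap. *Cdkn1a*, the inhibitor p21, lay above in every Y/T KO library (0.40), and *Pcna* (-0.21), *Ccnd1* (-0.34), and *Ccnd2* (-0.27) overlapped.

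The remaining lists held no called gene. The medians were 0.07 for 18 endothelial and 0.07 for 15 fibroblast genes, -0.23 for 21 macrophage and complement genes, and -0.03 for 19 lymphocyte, neutrophil, and mast cell genes. Chemokines and cytokines (24 genes, -0.40) had 2 lower and 1 higher before adjustment (p under 0.05), interferon-stimulated genes (30, -0.13) had 6 and 0, and acute phase genes (12, -0.34) had 3 and 0. Immediate-early genes (26, -0.43) ranged from -0.82 to 0.08 on leaving out 1 library. At the same unadjusted p, the Wnt pathway (44, -0.11) had 9 lower and 4 higher, the nitric oxide pathway (11, 0.11) 0 and 1, neurons and Schwann cells (20, 0.26) 0 and 2, the circadian clock (19, 0.18) 0 and 3, and heat shock proteins (25, -0.06) 2 and 3. The 4 Y chromosome genes had a median of 0.09, the 17 adipocyte genes one of 0.40, the 18 skeletal muscle genes one of 3.61, and the 5 tested genes of seminal vesicle and prostate one of 1.26, with no member of the last 3 at an unadjusted p under 0.05.

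**Figure D5:**
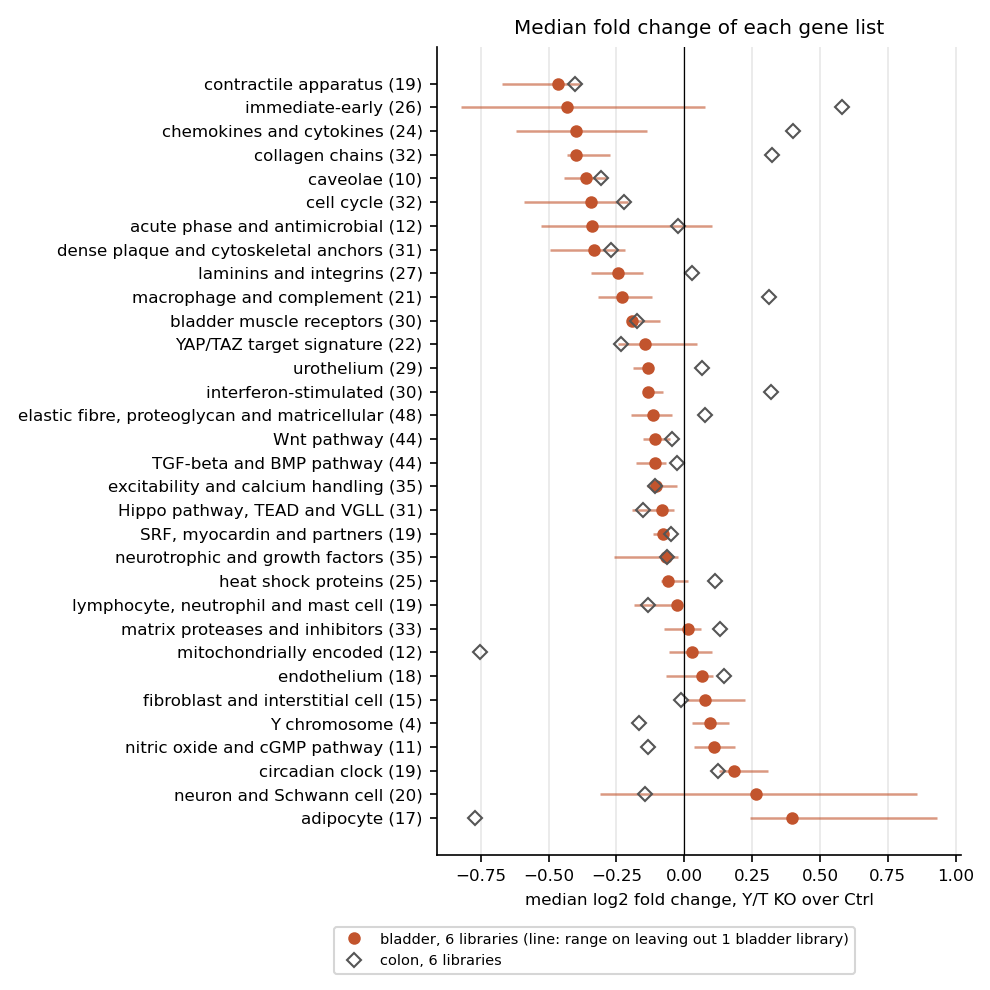
Median log2 fold change (Y/T KO over Ctrl) of each gene list in the bladder (filled, with the range on leaving out 1 bladder library) and in the colon (open), with the number of genes tested in the bladder in brackets. Muscle lists lie left of 0 in both tissues, and collagen chains lie at -0.40 in the bladder (32 chains) and 0.32 in the colon (26 chains). The prostate, skeletal muscle, and ferritin lists are left out for scale.

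Where the bladder differed from the colon was asked with the difference of the 2 effects, in a limma fit over all 12 libraries and the 16298 genes tested in both tissues. In that test 8 genes (0.0491%) passed, among them *Zbtb9*, *Dcaf6*, *1600014C10Rik*, *Htatip2*, and *Igkv1-135* of the genes described above. *Dcaf6* rose in the bladder from 32.7, 33.5, and 37.5 TPM to 64.8, 64.7, and 68.6 TPM, whereas the colons held 23.9 to 31.1 against 20.6 to 25.6 TPM (difference 1.16, limma adjusted p = 0.0244). No member of the contractile, dense plaque, or caveola lists passed, and their colon medians were -0.40, -0.27, and -0.31. The effect was lower in the bladder for 7.49% of genes and higher for 5.15% when the p was not adjusted (p under 0.05).

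The median of the collagen chains was negative in the bladder and positive in the colon. Of 26 chains tested in both tissues, 19 had a lower effect in the bladder and 1 a higher one at an unadjusted p under 0.05, and 0 passed after adjustment. Over these 26 chains the median was -0.45 in the bladder and 0.32 in the colon. *Col1a1* stood at 1046, 1323, and 1676 against 1120, 698, and 625 TPM in the bladder, and at 143 to 187 against 165 to 260 TPM in the colon (difference -1.25, limma adjusted p = 0.225). *Col15a1*, with a log2 fold change of -0.76 in the bladder, had one of 0.19 in the colon (difference -0.94, limma adjusted p = 0.191). *Serpinh1*, the collagen chaperone that fell in the bladder, stood at 53.4 to 248 against 86.6 to 238 TPM in the colon. Elastic fibre and proteoglycan genes had 14 lower and 2 higher effects of 47 at an unadjusted p under 0.05, and macrophage and complement genes 8 and 0 of 21.

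In the colon *Ftl2-ps* had a log2 fold change of -8.69 (limma adjusted p = 0.517), and the difference between tissues was -0.12 (limma adjusted p = 0.990). *Ftl2-ps* ranged from 402 to 671 TPM across the Ctrl colons and was listed at 0 in mice 783 and 780, as it was near 0 in their bladders, but it stood at 214 TPM in the colon of Y/T KO mouse 759. The bladder of that mouse was not analysed here. *Ftl1* made up 22.9% to 30.0% of the family's TPM in Ctrl colon, 51.9% in mouse 759, and 98.2% and 98.8% in mice 783 and 780.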

How the data were processed

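RNA from whole bladder and colon was sequenced from a stranded messenger RNA kit. Per the labels and their processing notes, the authors aligned reads to GRCm38 with HISAT2 and estimated gene abundances with StringTie. The deposited tables hold TPM, FPKM and coverage for each gene, as computed by the authors, and no counts. DESeq2, also named in those notes, needs counts and was not used here. Versions and the counting of strand are not given in the sources used here. Coverage divided by FPKM gave 2.80 to 3.66 aligned gigabases per bladder library, so low values are less precise.

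TPM was summed by gene ID, rescaled by median-of-ratios factors within tissue, and tested with limma 3.58.1 (trend and robust) in R 4.3.3 on log2(TPM + 0.1), which understates the change of low genes. Genes had to reach 0.5 TPM in 3 of 6 bladder libraries. P-values are two-sided and adjusted over all tested genes. Each library comes from another mouse within a tissue.

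Named genes are *Yap1*, *Wwtr1*, the called genes, and, in each list described, the called members, the 4 with the highest mean TPM, and the 3 with the lowest p. Other named genes were chosen after their values were seen. Members and lists were chosen with earlier results of these data known. Copies were aligned with blastn 2.17.0 to GENCODE M21 transcripts. Alternatives were the pseudocount, filter, scaling, FPKM, limma options, all 12 libraries with or without a mouse block, leaving out each library, and, chosen after seeing the data, the split by prostate RNA (*Sbp* over 1000 TPM). Some items, 1 of the genes that rose included, are not reported here.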

Additional observations from a re-analysis of the deposited data

Results flagged for a closer look

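For 8 genes the effect of the knockout differed between bladder and colon by the limma interaction test (adjusted p under 0.05), given as the bladder minus the colon log2 fold change. For *Zbtb9* it was -7.35 (limma adjusted p = 4.1e-08), with Y/T KO bladders listed at 0, so that its size depends on the pseudocount. *Htatip2* rose in both tissues and by less in the bladder (-5.30), at 35.3, 35.5, and 48.4 against 114, 96.2, and 97.2 TPM in the bladder and 0.163 to 0.805 against 34.0 to 64.4 TPM in the colon. For *Igkv1-135* the difference was 4.75, with a log2 fold change of 2.88 in the bladder and -1.87 in the colon. *Hrh1*, the histamine H1 receptor, gave 3.40, at 1.82 to 1.95 against 2.23 to 2.63 TPM in the bladder and 8.46 to 9.66 against 0.717 to 1.13 TPM in the colon.

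*Olfml3*, a secreted olfactomedin-like protein, gave -3.46. It stood at 16.3, 43.7, and 53.7 against 18.7, 20.7, and 13.4 TPM in the bladder, with overlap, and at 3.65 to 4.46 against 18.5 to 25.1 TPM in the colon. *Mal*, a membrane proteolipid, gave 1.86, with log2 fold changes of -0.09 and -1.95. *1600014C10Rik* gave 1.63 and *Dcaf6* gave 1.16. Both rose in the bladder and did not pass in the colon (limma adjusted p = 0.638 and 0.648).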

How the results depend on the processing

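With another pseudocount, filter, scaling, unit (FPKM) or set of limma options, 48 to 62 genes were called in total. Of the 55, 39 were still called without the trend and robust options of limma, 45 without a filter, and 46 with TPM as deposited. With FPKM 48 were, and with either other pseudocount 54. All 55 kept their sign in every alternative run. As their genotypes did not overlap, leaving out or splitting libraries could hardly change a sign, so this says little about stability. With all 12 libraries in one fit, 26 genes were called higher and 47 lower, and the replicate block by mouse gave 26 and 47 as well, with 22 of the 55 genes still called. The deviations of the 3 mice that gave both tissues correlated at -0.02, 0.09, and 0.06 between tissues, and under the mouse block the difference between tissues again held 8 genes. Leaving out 1 library gave 19 to 51 called genes, 14 to 36 of them lower and 1 to 15 higher, and 14 genes were called each time. The difference between tissues then held 6 to 15 genes, 15 without Y/T KO mouse 782. Without each library in turn, 15 (Ctrl mouse 788) to 30 (Y/T KO mouse 782) of the 55 were still called. Chosen after seeing the data, a term for prostate RNA kept 36 of the 55. The 3 libraries without prostate RNA called 3 genes, 3 lower and 0 higher (limma, 776 and 583 at p under 0.05 before adjustment), with a contractile median of -0.13, and the 3 libraries with it called 0 (956 and 865). Each of these fits has fewer samples, with a single mouse in 1 genotype that is assumed to vary like the others.

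Of 100 other named genes, 26 changed sign in some alternative, and the cause was not tested. With FPKM, the log2 fold changes of these were 0.017 for *Igfbp5*, 0.0089 for *Igfbp7*, and 0.011 for *Mob1a*. With the term for prostate RNA they were 0.0047 for *Ccdc80*, -0.47 for *Hopx*, 0.033 for *Igfbp7*, 0.036 for *Klf4*, and 0.0040 for *Upk1b*. In the libraries without prostate RNA they were 0.21 for *Avpr1a*, 0.087 for *Ccdc80*, -1.93 for *Ctgf*, 0.16 for *Flna*, -0.065 for *Fstl1*, -1.08 for *Hopx*, 0.061 for *Igfbp5*, 0.072 for *Igfbp7*, 0.010 for *Lama4*, -0.036 for *Map4k4*, 0.0023 for *Myof*, -0.16 for *Sav1*, and 0.071 for *Upk1a*. In those with it they were -0.16 for *Cavin2*, 3.19 for *Cyr61*, -0.10 for *Id2*, -0.078 for *Itgb5*, -0.00015 for *Itpr1*, 0.75 for *Klf4*, 0.077 for *Mob1a*, -0.067 for *Serping1*, and 0.039 for *Upk1b*. Leaving out 1 library gave -0.020 to 0.34 for *Bgn*, -0.052 to 0.16 for *Cavin2*, -0.11 to 0.068 for *Ccdc80*, -0.94 to 1.43 for *Ctgf*, -2.52 to 0.70 for *Cyr61*, -0.0086 to 0.10 for *Elk4*, -0.0074 to 0.094 for *Fstl1*, -0.48 to 0.81 for *Hopx*, -0.24 to 0.32 for *Igfbp5*, -0.065 to 0.064 for *Igfbp7*, -0.012 to 0.24 for *Itgb5*, -0.43 to 0.33 for *Klf4*, -0.093 to 0.32 for *Map4k4*, -0.048 to 0.069 for *Mob1a*, -0.12 to 0.080 for *Myof*, -0.032 to 0.088 for *Sav1*, -0.028 to 0.21 for *Serping1*, -0.091 to 0.094 for *Tgfbi*, -0.14 to 0.0078 for *Upk1b*, and -0.017 to 0.43 for *Wwtr1*.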
